A study of Mus musculus with 2 samples.

Results

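The C1q macrophages described here are host cells that had entered tumours grown under the skin from B16-F10 mouse melanoma cells. The melanoma cells were FDPS-knockout (FDPS-KO) or wild type (WT), FDPS encoding farnesyl diphosphate synthase of the mevalonate pathway, and tumours were taken on day 14 after injection. White blood cells, sorted as live and CD45-positive, were profiled by droplet single-cell RNA sequencing, with 3 tumours for each group and 1 library for each group. Which cell came from which tumour is not given by the labels, which also do not say how the knockout line was made or whether it was a single clone, and give no strain, sex or age of the host mice. The knockout is a label of the melanoma cells, so the macrophages of both libraries are unedited host cells as far as the labels state. With 1 library a group there was no test, and every difference below is between 2 libraries. Intervals are at 95% and hold counting error alone. They are exact, after Clopper and Pearson for shares and from Poisson counts for sums. Those of ratios of shares instead use a normal approximation on the log scale.

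The cells were chosen by their counts of unique molecular identifiers (UMIs), each UMI standing for 1 captured RNA molecule. Barcodes with at least 200 genes and under 10% mitochondrial UMIs were kept, which gave 8697 FDPS-KO and 9415 WT cells. A cell then needed at least 2 UMIs of Csf1r, the receptor for macrophage colony-stimulating factor, at most 2 of the T cell genes Cd3e, Cd3d, Cd3g and Trac together, and under 3 of the division genes Mki67 and Top2a. It further needed at most 1 UMI of Cd163 and Cd209f, under 10 of Retnla, under 10 of Spp1 and Arg1, and at least 30 of C1qa, C1qb and C1qc together. This gave 993 cells of 18112, of which 173 were from FDPS-KO and 820 from WT tumours. Levels of these 15 gate genes, and the share of cells they define, were fixed by the rule and are given as a description.

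C1q is the recognition part of the classical complement pathway, built from the products of C1qa, C1qb and C1qc, and in tissues it is made mostly by macrophages. Tumour macrophages arise largely from blood monocytes and take on different states with their place in the tumour, among them antigen-presenting, lipid-loaded, hypoxic and resident-like states. Cells with much C1q are commonly described among the antigen-presenting and clearing macrophages, apart from the Spp1 or Arg1 cells that often mark poorly oxygenated tumour.

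C1q macrophages were a smaller share of the sorted cells in FDPS-KO tumours. They made up 1.99% (1.71 to 2.31) of 8697 FDPS-KO cells and 8.71% (8.15 to 9.30) of 9415 WT cells, a ratio of 0.228 (0.194 to 0.268). Part of this gap was already in the base gates for Csf1r, T cell genes and division, which 940 FDPS-KO and 2630 WT cells passed. Of those cells, C1q macrophages were 18.4% (15.98 to 21.0) in FDPS-KO and 31.2% (29.4 to 33.0) in WT, a ratio of 0.590 (0.510 to 0.683). The other classes of gated cells differed as well, not all in the same direction. Cd163 or Cd209f cells numbered 122 in FDPS-KO and 30 in WT, Retnla-high cells 228 in FDPS-KO and 4 in WT, and Spp1 or Arg1 cells 9 in FDPS-KO and 870 in WT. Cells under the C1q gate numbered 408 in FDPS-KO and 906 in WT.

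**Figure D1:**
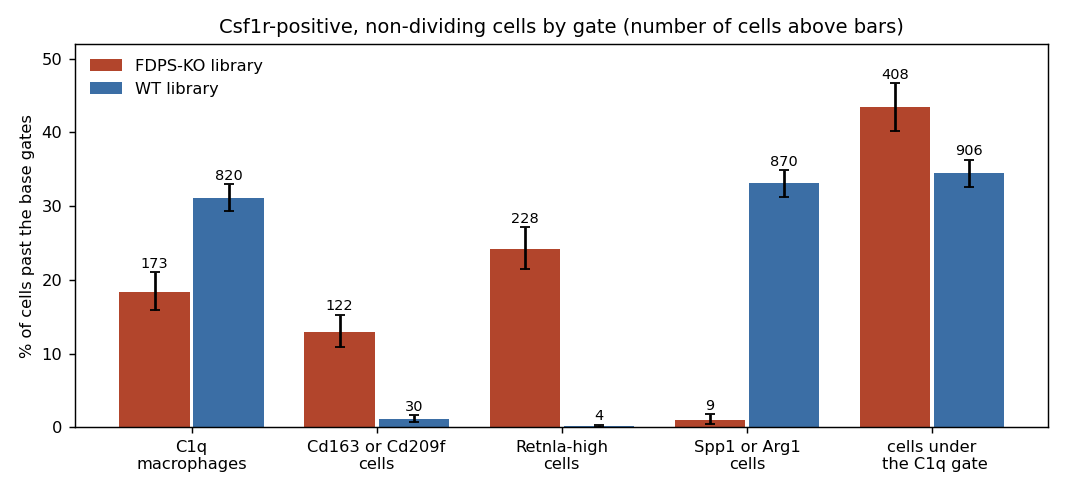
Share of the cells past the base gates (y axis, %) in each class of cells (x axis), FDPS-KO library at left and WT library at right of each pair. Bars are shares of 940 FDPS-KO and 2630 WT cells, lines are exact 95% intervals and numbers are cells; C1q macrophages were 18.4% of FDPS-KO and 31.2% of WT cells.

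At the C1q threshold, 13 FDPS-KO and 24 WT cells with 30 to 34 C1q UMIs were just inside, and 13 FDPS-KO and 25 WT cells with 25 to 29 were just outside. Cells just inside had 574 CPM (UMIs per 1000000 UMIs of the class) of Adgre1 in FDPS-KO and 408 CPM in WT, and cells just outside 703 CPM in FDPS-KO and 456 CPM in WT. Members held a median of 72 C1q UMIs per cell in FDPS-KO and 189 in WT, and 12.7% of FDPS-KO and 4.88% of WT members had under 40. The FDPS-KO members therefore lay closer to the gate. They were also shallower, with a median of 16092 UMIs and 4016 genes per cell in FDPS-KO and 22638.5 UMIs and 4772.5 genes in WT. Thinned to 5000 UMIs per cell, which left out 1 FDPS-KO and 3 WT members, the median was 29 C1q UMIs in FDPS-KO and 45 in WT cells. Summed over members, C1qa was at 2070 CPM (2019 to 2122) in FDPS-KO and 3290.2 CPM (3265 to 3316) in WT.

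Macrophage genes set the members apart from T cells, a contrast in which monocytes had no part. Adgre1, which encodes F4/80 and was not a gate gene, had a UMI in 80.8% of FDPS-KO and 77.2% of WT members at equal depth, against 1.001% of FDPS-KO and 1.76% of WT T cells thinned alike. Its summed level was 695 CPM in FDPS-KO and 436 CPM in WT members. Mertk, a receptor for dying cells, had a UMI in 63.4% of FDPS-KO and 41.7% of WT members and in 0.132% of FDPS-KO and 0.620% of WT T cells. Free RNA, estimated from C1q UMIs in T cells, came to 3.70% of a member's median UMIs in FDPS-KO and 3.04% in WT.

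Other-lineage markers were low but not equal in the 2 libraries. The 7 T cell markers summed to 45.5 CPM in FDPS-KO and 24.5 CPM in WT, and the 7 natural killer markers to 97.0 CPM in FDPS-KO and 27.1 CPM in WT, most of the FDPS-KO sum from 1 cell. B cell markers summed to 157 CPM in FDPS-KO, where Cd79a was at 0, and 132 CPM in WT. Neutrophil markers summed to 134 CPM in FDPS-KO and 82.1 CPM in WT, nearly all of it Csf3r, with Retnlg at 0 in both. Markers of conventional dendritic cells type 2 (Cd209a, Flt3, Zbtb46, Clec10a, Mgl2, Ltb) summed to 248 CPM in FDPS-KO and 81.2 CPM in WT, most of it Clec10a and Mgl2, which macrophages also use. Type 1 dendritic cell markers summed to 738 CPM in FDPS-KO and 983 CPM in WT, most of it Cadm1 and Irf8. Plasmacytoid markers summed to 666 CPM in FDPS-KO and 915 CPM in WT, mostly Bst2 and Tcf4. Melanoma markers summed to 42.5 CPM in FDPS-KO and 283 CPM in WT, with up to 2128 UMIs in a single WT cell. Endothelial markers, nearly all Pecam1, summed to 80.9 CPM in FDPS-KO, where Cdh5 was at 0, and 49.5 CPM in WT. Mature dendritic cell, mast, erythroid and fibroblast markers each stayed at or below 11.04 CPM in both libraries, with Cpa3, Mcpt4, Cma1 and Tpsb2 at 0 in WT. The part these cells or their RNA have in the results was not tested. Values without the cells that carry their UMIs are given beside some of the results, not all. The libraries shared 30 barcodes, and no barcode was a member in both.

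Beyond the gate genes, 10 genes stood highest in C1q macrophages over the pooled other cells past the base gates, by the lower ratio of the 2 libraries. They were Sox5, a transcription factor, Fcrl5, an Fc receptor-like protein, the adhesion genes Cadm1, Ptprm and Negr1, the myeloid receptors Cd300e, Klra17 and Siglece, and Prune2 and Cd79b. Sox5 was at 94.6 CPM in FDPS-KO members and 143 CPM in WT members, against 4.96 CPM in the other gated FDPS-KO cells and 13.8 CPM in the other gated WT cells. Negr1 was at 516 CPM in FDPS-KO members and 194 CPM in WT members, against 124 CPM and 27.2 CPM in the other gated cells of FDPS-KO and of WT. Sox5 and Fcrl5 sat in few cells. Sox5 had a UMI in 16.3% of FDPS-KO and 21.2% of WT members at equal depth, and 5 FDPS-KO cells held 51.9% of its UMIs. The pattern did not hold in every class, since Prune2 was at 122 CPM in the 30 WT Cd163 or Cd209f cells, above the 77.4 CPM of WT members. Cadm1 is also a marker of type 1 dendritic cells and Cd79b of B cells.

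**Figure D2:**
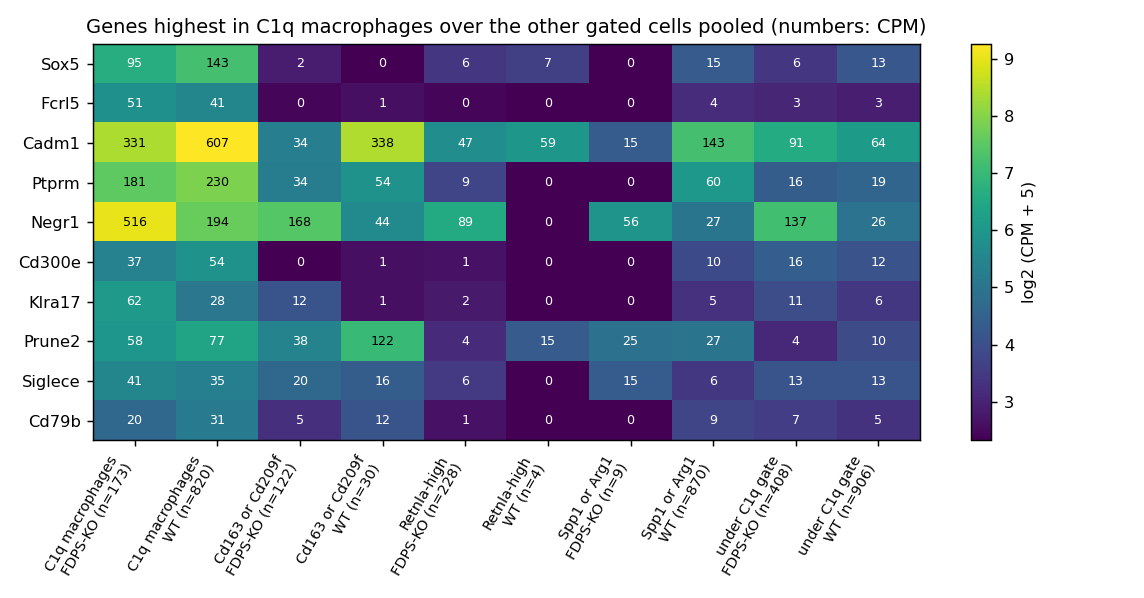
Levels of the 10 leading genes (rows) in C1q macrophages and the other 4 classes of gated cells (columns), each class as FDPS-KO then WT with its number of cells. Numbers are CPM and colour is log2 of CPM plus 5; Sox5 was at 94.6 CPM in FDPS-KO and 143 CPM in WT C1q macrophages.

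Between the libraries, 8149 genes had at least 10 CPM in the mean of both libraries and were counted as measured. Ratios below are log2 of CPM plus 5, FDPS-KO over WT, which understates the change of low genes, and a gene is called higher or lower when past 1.5-fold. Of the measured genes, 1438 were higher in FDPS-KO (17.6%) and 1254 lower (15.4%), with a median log2 ratio of 0.04. These shares are the background for every count below. With trimmed mean scaling the median shifted to -0.14, and 867 genes were higher and 1834 lower, so higher genes were 32.1% of the called genes in place of 53.4%. Ratios also followed the length of the gene on the genome. The median was -0.44 in the tenth of genes with the shortest span and 0.57 in the tenth with the longest, so medians are also given less that of genes of like span. Ribosomal protein genes took 8.62% of UMIs in FDPS-KO and 12.7% in WT members.

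The genes furthest apart between the libraries came from different roles. The 12 highest in FDPS-KO were Lyz1, a lysozyme, Dcstamp, a fusion protein of osteoclasts and dendritic cells, Cd226, an adhesion receptor, Adam22 and Adam19, Agmo, an enzyme of ether lipid breakdown, Thrb, a thyroid hormone receptor, the early genes Fosb and Nr4a1, and Plxdc2, Tmem176a and Gpr141. Lyz1 was at 263 CPM in FDPS-KO and 16.6 CPM in WT, a ratio of 15.9 (13.9 to 18.1), and Tmem176a at 213 CPM in FDPS-KO and 34.4 CPM in WT, a ratio of 6.20 (5.55 to 6.92). They differed in how many cells carried them. Tmem176a had a UMI in 54.1% of FDPS-KO and 9.91% of WT members at equal depth, whereas Dcstamp had one in 2.91% of FDPS-KO and 0.367% of WT members. A few cells held most of some genes, since 5 FDPS-KO cells held 96.2% of the Dcstamp and 77.1% of the Lyz1 UMIs. In WT, 5 cells held 75.2% of the Lyz1 UMIs, and the interval of the ratio leaves out such spread among cells. Without the cells highest in immediate early genes, described below, the log2 ratio of Dcstamp was 0.47 in place of 3.38, within 1.5-fold, and that of Lyz1 was 1.75 in place of 3.63. Without the Spp1, Retnla and Cd163 gates that of Lyz1 was 5.33. Cd226 and Adam19 are also T cell genes, with a UMI in 72.9% and 54.4% of FDPS-KO T cells. A set of members with next to no UMIs of other lineages was also taken. It lacked the T cell gate genes and had next to none of chosen B, natural killer, neutrophil, melanoma and type 1 dendritic cell markers. Markers of the remaining lineages were not used. The set kept 91 of 173 FDPS-KO and 119 of 820 WT members, and there the log2 ratio was 3.78 for Cd226 and 1.73 for Adam19.

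The 12 lowest in FDPS-KO were Gdf15, a stress cytokine, Hgsnat, a lysosomal enzyme, the proteases Mmp12 and Mmp13, Cox4i2, a subunit of the respiratory chain used at low oxygen, the chemokines Ccl2, Ccl7 and Ccl12, Gpnmb, Ptgds, Lipg and Fabp5. Hgsnat was at 28.4 CPM in FDPS-KO and 222 CPM in WT, 7.81-fold lower (6.30 to 9.79), and had a UMI in 12.8% of FDPS-KO and 44.9% of WT members. T cells of the 2 libraries carried it alike, in 14.2% in FDPS-KO and 11.7% in WT. Gdf15 was at 5.69 CPM in FDPS-KO and 73.9 CPM in WT, 12.99-fold lower (8.09 to 22.4). Cox4i2 had 1 UMI in FDPS-KO and 537 in WT, a ratio of 0.0123 (0.000310 to 0.0686). Lipg, an endothelial lipase, had 2 UMIs in FDPS-KO and 499 in WT, a ratio of 0.0264 (0.00319 to 0.0959). A few cells weighed on some of these genes in WT, where the top 5 cells held 60.05% of the Ptgds, 48.6% of the Mmp12 and 39.3% of the Lipg UMIs. The log2 ratio of Ptgds was -2.46 and ranged from -3.40 to -0.89 over the alternative settings described at the end.

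Genes of MHC class II presentation, the display of peptides to CD4 T cells, were higher in FDPS-KO macrophages. Of 13 measured genes 9 were higher and 0 lower, with a median log2 ratio of 0.89, or 0.91 less that of genes of like span. The chains H2-Aa, H2-Ab1 and H2-Eb1 and the invariant chain Cd74 were all among them. H2-Aa was at 5865 CPM in FDPS-KO and 2084 CPM in WT, a ratio of 2.81 (2.76 to 2.86). H2-Eb1 was at 5325 CPM in FDPS-KO and 1841 CPM in WT, a ratio of 2.89 (2.84 to 2.95). Cd74 was at 10014 CPM in FDPS-KO and 4510 CPM in WT. Ciita, the master activator of these genes, was further apart at 397 CPM in FDPS-KO and 89.2 CPM in WT, a ratio of 4.45 (4.13 to 4.80), and it had a UMI in 77.3% of FDPS-KO and 29.1% of WT members at equal depth. The accessory chain H2-DMb2 was at 34.8 CPM in FDPS-KO and 6.60 CPM in WT. The list also counts Cd80, a costimulatory gene at 43.1 CPM in FDPS-KO and 20.9 CPM in WT, whose log2 ratio is the list median. Cd86, also costimulatory, was at 358 CPM in FDPS-KO and 201 CPM in WT, and both were past 1.5-fold. The processing genes were not, with Ctss at 3059 CPM in FDPS-KO and 2396 CPM in WT and Ifi30 at 600.0 CPM in FDPS-KO and 727 CPM in WT. Dendritic cells carry the same genes. In the 157 FDPS-KO and 793 WT members without Flt3 and Zbtb46 and with next to no Cd209a the median was 0.97.

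The promoters of class II genes are known for a conserved Y box, the binding site of the factor NF-Y, which works with Ciita. The 250 bases before the start of H2-Aa (chr17:34287824-34288073, minus strand) and H2-Eb1 (chr17:34305617-34305866, plus strand) in RefSeq on GRCm38.p6 are printed because these are the chains whose values are given above and both hold it. Capitals mark CTGATTGG, searched on both strands, which contains ATTGG, the reverse complement of the shorter CCAAT. Its first base lies at -51 in H2-Aa and -62 in H2-Eb1, counting -1 as the base before the start.
H2-Aa: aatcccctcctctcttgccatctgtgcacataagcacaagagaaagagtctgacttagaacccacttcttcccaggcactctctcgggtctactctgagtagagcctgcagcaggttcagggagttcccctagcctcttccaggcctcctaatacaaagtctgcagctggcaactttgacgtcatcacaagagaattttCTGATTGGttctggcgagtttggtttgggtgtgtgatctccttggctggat
H2-Eb1: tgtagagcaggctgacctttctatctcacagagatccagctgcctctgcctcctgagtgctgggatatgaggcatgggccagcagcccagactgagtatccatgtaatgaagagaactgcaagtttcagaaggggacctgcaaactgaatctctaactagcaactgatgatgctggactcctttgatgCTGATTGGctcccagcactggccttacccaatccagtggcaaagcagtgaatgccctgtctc
The Y box stood in 3 of the 11 windows of the class II list and in 3.799% of all 32536 such windows. A match is a run of letters in these windows, and binding was not measured.

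Hypoxia and glycolysis genes ran the other way. Of 23 measured genes 16 were lower in FDPS-KO and 0 higher, with a median log2 ratio of -1.30, or -1.02 less that of genes of like span. Glycolytic enzymes made up most of the lower genes, among them Gapdh, Aldoa, Tpi1, Pgk1, Pgam1, Eno1, Pkm and Ldha. Gapdh was at 682 CPM in FDPS-KO and 2821 CPM in WT, 4.14-fold lower (3.96 to 4.33). Pkm was at 350.2 CPM in FDPS-KO and 1261 CPM in WT. Pgk1 was at 211 CPM in FDPS-KO and 639.9 CPM in WT, 3.04-fold lower (2.80 to 3.30). The hypoxia-induced genes Bnip3, an inducer of mitophagy, and Hilpda, a lipid droplet protein, were lower too, with Bnip3 at 61.2 CPM in FDPS-KO and 158.5 CPM in WT and Hilpda at 29.8 CPM in FDPS-KO and 114 CPM in WT. The growth factor Vegfa and the collagen hydroxylase P4ha1 differed from the rest, with Vegfa at 99.3 CPM in FDPS-KO and 64.7 CPM in WT, just under 1.5-fold with 5 CPM added to each. Of the P4ha1 UMIs in FDPS-KO, 47.5% sat in 5 cells. Hif1a, which encodes the oxygen-regulated factor itself and is not counted in this list, was higher past 1.5-fold. It was at 220.4 CPM in FDPS-KO and 136 CPM in WT. Melanoma cells use glycolysis heavily, and in the 91 FDPS-KO and 119 WT members with next to no UMIs of melanoma and other lineages the median was -1.07.

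Hypoxia-inducible factors bind sites with the core ACGTG. The windows of Pgk1 (chrX:106186850-106187099, plus strand) and Bnip3 (chr7:138909507-138909756, minus strand), textbook targets of these factors, are printed with the core or its reverse complement CACGT in capitals, at -150 and -131 in Pgk1 and at -108 in Bnip3.
Pgk1: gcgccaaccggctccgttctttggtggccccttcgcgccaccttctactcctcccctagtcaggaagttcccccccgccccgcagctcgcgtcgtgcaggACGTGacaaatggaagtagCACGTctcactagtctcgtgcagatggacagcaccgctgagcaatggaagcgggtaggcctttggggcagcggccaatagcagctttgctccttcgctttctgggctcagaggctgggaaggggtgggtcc
Bnip3: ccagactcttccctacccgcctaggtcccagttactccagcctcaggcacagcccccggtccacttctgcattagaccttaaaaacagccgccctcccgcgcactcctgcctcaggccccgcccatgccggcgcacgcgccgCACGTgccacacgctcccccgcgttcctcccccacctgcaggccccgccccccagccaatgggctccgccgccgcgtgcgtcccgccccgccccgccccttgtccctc
The core stood in 14 of 31 windows of the hypoxia and glycolysis list and in 16.7% of all windows. It was searched on both strands, and the palindrome CACGTG counts as a match. The short core is common, the list was chosen for known targets, and the match says nothing of binding in these cells.

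**Figure D3:**
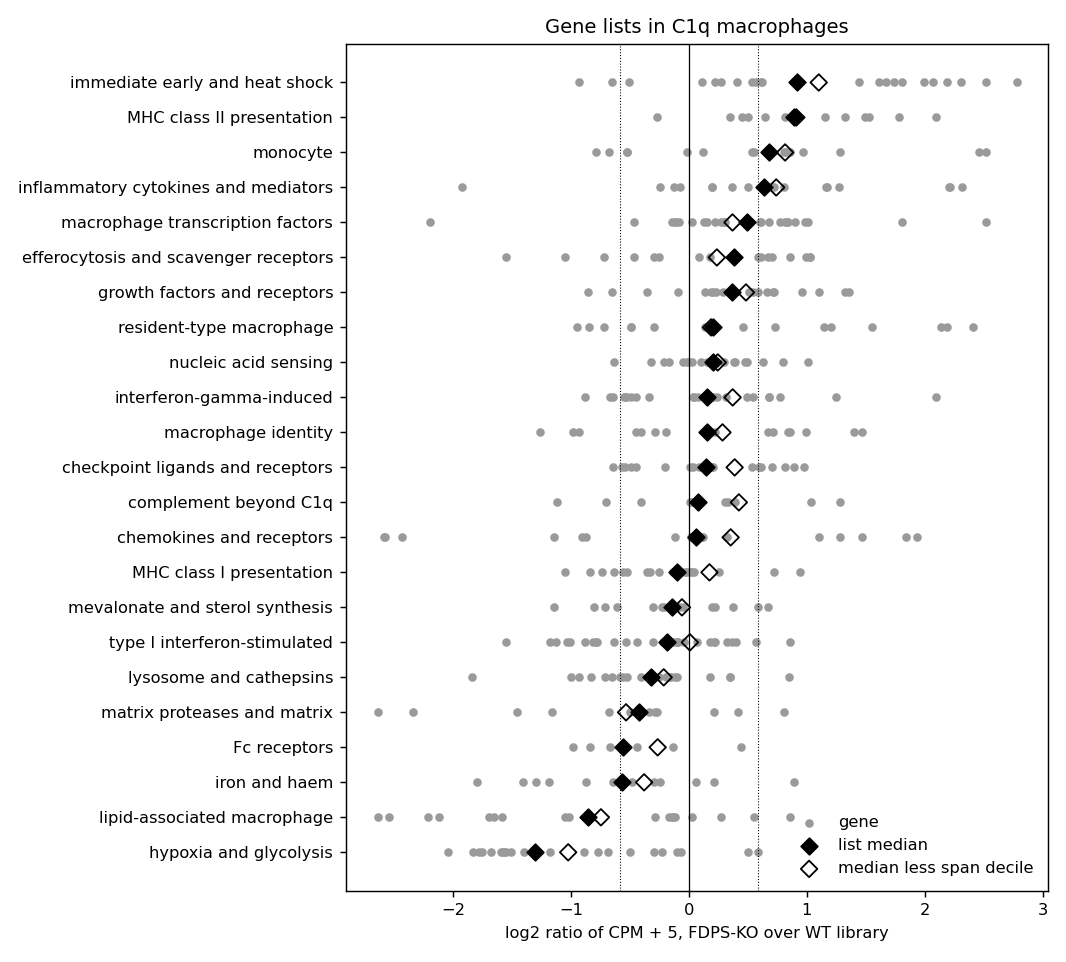
Log2 ratio of CPM plus 5, FDPS-KO over WT (x axis), for measured genes of 23 lists (rows, ordered by median). Grey points are genes, filled diamonds list medians, open diamonds medians less that of genes of like span and dotted lines 1.5-fold; MHC class II lies at 0.89 and hypoxia and glycolysis at -1.30.

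Lipid-associated macrophage genes, which mark cells that take up and store lipid, were mostly lower in FDPS-KO. Of 19 measured genes 10 were lower and 1 higher, with a median of -0.85. Fabp5, a fatty acid carrier, was at 215 CPM in FDPS-KO and 1010.4 CPM in WT, 4.71-fold lower (4.35 to 5.10), and had a UMI in 22.7% of FDPS-KO and 64.4% of WT members. Trem2, a lipid-sensing receptor, was at 62.5 CPM in FDPS-KO and 207 CPM in WT, and Lgals3 at 1251 CPM in FDPS-KO and 3767 CPM in WT. Gpnmb was at 24.1 CPM in FDPS-KO and 164 CPM in WT, 6.82-fold lower (5.40 to 8.73). Apoe, a lipid carrier, was the gene of this list that was higher, at 3962 CPM in FDPS-KO and 2189.7 CPM in WT, while the sterol exporters Abca1 and Abcg1 and the lipid regulator Pparg stayed within 1.5-fold. Gpnmb and Cd63 are also melanoma genes, and among members with next to no UMIs of other lineages the log2 ratio of Gpnmb was -3.82 and the list median -0.80.

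Iron and haem genes were lower as well, 6 of 12 lower and 1 higher with a median of -0.57. The ferritin chains, the most abundant of the list, had Fth1 at 5939 CPM in FDPS-KO and 13539 CPM in WT and Ftl1 at 2978 CPM in FDPS-KO and 7889 CPM in WT. The haem-degrading enzymes Hmox1, at 294 CPM in FDPS-KO and 728 CPM in WT, and Blvrb, at 156 CPM in FDPS-KO and 554 CPM in WT and the lowest of the list, were lower, and transferrin (Trf) was higher at 112 CPM in FDPS-KO and 57.8 CPM in WT. Ferritin genes are short, and less the median of genes of like span the list stood at -0.38.

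Lysosome and cathepsin genes had 6 of 22 lower and 1 higher, with a median of -0.32. Ctsl was at 104 CPM in FDPS-KO and 387 CPM in WT, and Ctsd at 577 CPM in FDPS-KO and 1159 CPM in WT. Among 6 Fc receptor genes, which bind antibody, the activating Fcgr1 and Fcgr4 and the shared chain Fcer1g were lower and none was higher, with a median of -0.56 that became -0.26 less that of genes of like span. The inhibitory Fcgr2b was at 381 CPM in FDPS-KO and 279 CPM in WT, within 1.5-fold. Of 12 matrix genes 5 were lower and 1 higher, the metalloproteases Mmp12, with 8.70 CPM in FDPS-KO and 80.3 CPM in WT, and Mmp13, with 2.01 CPM in FDPS-KO and 30.6 CPM in WT, furthest apart.

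Chemokines were mixed. Ccl2, Ccl7 and Ccl12, ligands of Ccr2 that draw in monocytes, were the lowest of their list. Ccl2 was at 176 CPM in FDPS-KO and 1073 CPM in WT, 6.10-fold lower (5.59 to 6.66). Ccl7 was at 124 CPM in FDPS-KO and 769 CPM in WT, and Ccl12 at 122 CPM in FDPS-KO and 682 CPM in WT. Ccl8, the most abundant gene of the list, was also lower, at 828 CPM in FDPS-KO and 1553 CPM in WT. It was near equal in the cells low in immediate early genes, described below, at 1460 CPM in FDPS-KO and 1492 CPM in WT. In the cells high in those genes it was at 163 CPM in FDPS-KO and 1191 CPM in WT. Most WT members carried Ccl2 and few FDPS-KO members did, with a UMI in 18.6% of FDPS-KO and 73.4% of WT members at equal depth. T cells gave a Ccl2 UMI in 0.738% in FDPS-KO and 11.7% in WT, so Ccl2 was also more frequent among WT T cells. With free RNA subtracted the log2 ratio of Ccl2 in members was -2.55 in place of -2.57. The chemokine receptors Cxcr4, Cx3cr1 and Ccr2 were higher, with Ccr2 at 421 CPM in FDPS-KO and 170.4 CPM in WT and Cxcr4 at 132 CPM in FDPS-KO and 31.0 CPM in WT. Cxcl2, which attracts neutrophils, was at 130.4 CPM in FDPS-KO and 32.7 CPM in WT, but 18 FDPS-KO cells carried it and 5 of them held 94.1% of its UMIs. In all, 5 of 16 measured genes were higher and 6 lower. Cxcl9 and Cxcl16, which attract T cells, stayed within 1.5-fold, with Cxcl9 at 1104 CPM in FDPS-KO and 973 CPM in WT.

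Immediate early and heat shock genes, which respond within minutes to stimuli and also to tissue digestion, were higher, 14 of 23 with 2 lower and a median of 0.92. Fos was at 858 CPM in FDPS-KO and 169 CPM in WT, Hspa1a at 691 CPM in FDPS-KO and 194 CPM in WT, and Fosb at 83.3 CPM in FDPS-KO and 7.87 CPM in WT. Inflammatory mediators went with them, 9 of 17 higher and 1 lower with a median of 0.63. Il1b was at 504 CPM in FDPS-KO and 97.4 CPM in WT, a ratio of 5.17 (4.83 to 5.54), and Ptgs2, the inducible prostaglandin synthase, at 273 CPM in FDPS-KO and 54.7 CPM in WT. The top 5 cells held 40.5% of the FDPS-KO and 25.6% of the WT Il1b UMIs. Il10, the anti-inflammatory cytokine, was at 2.68 CPM in FDPS-KO and 24.2 CPM in WT with 8 UMIs in FDPS-KO, 9.03-fold lower (4.55 to 21.0). Of 17 measured monocyte genes 9 were higher and 2 lower with a median of 0.68, among them Ly6c2 at 222 CPM in FDPS-KO and 111 CPM in WT and Gpr141 at 331 CPM in FDPS-KO and 55.9 CPM in WT. Ly6c2 is also a T cell gene, with a UMI in 59.8% of FDPS-KO and 54.2% of WT T cells.

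The higher levels of these 3 sets sat in a subset of the FDPS-KO cells. Members of both libraries together were cut into 3 groups of like size by their UMIs of the immediate early and heat shock list per 5000, with cuts at 21 and 31. The low, middle and high groups held 73, 23 and 76 FDPS-KO cells, against 240, 311 and 266 WT cells. FDPS-KO cells thus lay at both ends, and 4 FDPS-KO and 127 WT cells lay within 3 UMIs of the upper cut. In the high group, Il1b was at 1008 CPM in FDPS-KO and 211 CPM in WT, Plac8 at 1039 CPM in FDPS-KO and 439.8 CPM in WT, and Lyz1 at 247 CPM in FDPS-KO and 5.26 CPM in WT. In the low group Il1b was at 19.2 CPM in FDPS-KO and 59.2 CPM in WT, and Plac8 at 41.1 CPM in FDPS-KO and 234 CPM in WT. The macrophage gene Adgre1 was at 1121 CPM in FDPS-KO and 512.5 CPM in WT in the low group. It was at 353 CPM in FDPS-KO and 386 CPM in WT in the high group, so the high FDPS-KO cells were less macrophage-like by this gene. Without the high group (96 FDPS-KO and 573 WT cells left) the monocyte median was -0.54, the inflammatory median -0.00435 and the immediate early median -0.30. The inflammatory difference was thus gone, while the monocyte and immediate early medians changed sign. The immediate early list made the split and shares Nr4a1 with the monocyte list. MHC class II stood at 0.87, hypoxia and glycolysis at -2.15 and the lipid-associated list at -1.03 in the same cells. Taken group by group on thinned cells, the class II median was 0.62 in the low, 0.44 in the middle and 1.02 in the high group.

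**Figure D4:**
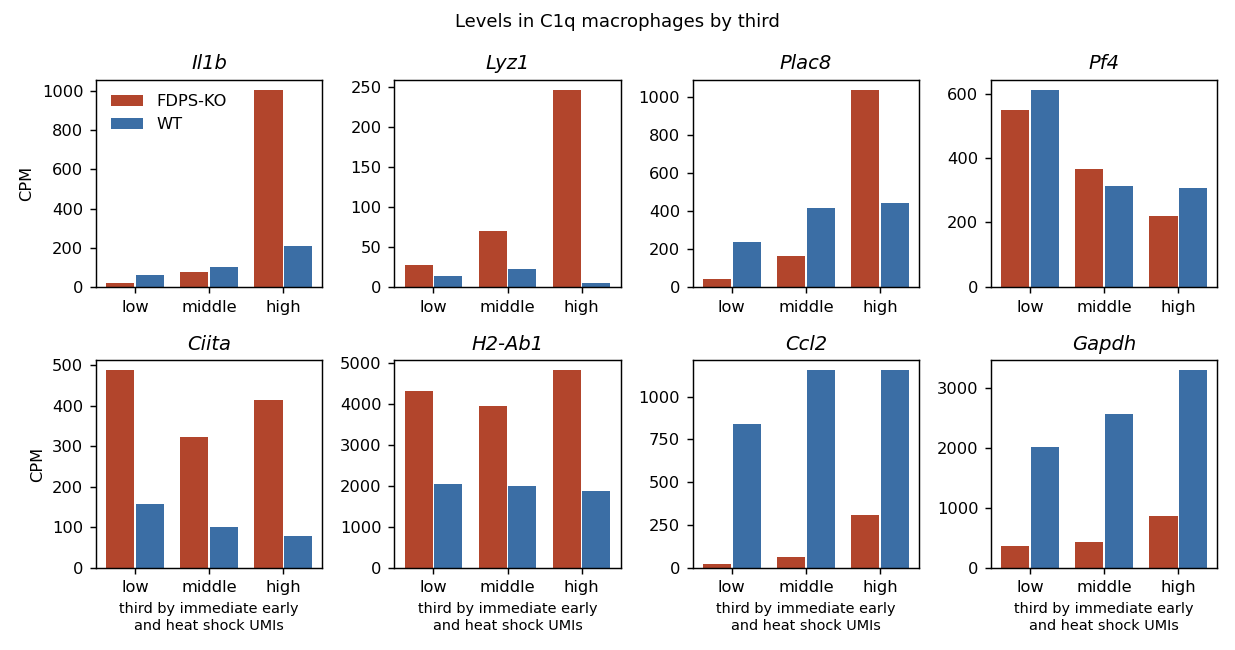
Levels (y axis, CPM, each gene on its own scale) of 8 genes in C1q macrophages of the low, middle and high group by immediate early and heat shock UMIs (x axis), FDPS-KO left and WT right of each pair. Il1b reached 1008 CPM in the high FDPS-KO group, while Ciita and H2-Ab1 were higher and Ccl2 and Gapdh lower in FDPS-KO in all 3 groups.

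Resident-type macrophage genes showed the other end of this range. Over all members 7 of 17 were higher and 3 lower with a median of 0.21, and in the low group the median was 0.75. Without the Spp1, Retnla and Cd163 gates the median was 1.44. In the low group Selenop, a selenium carrier, was at 1351 CPM in FDPS-KO and 585 CPM in WT. There Mrc1, the mannose receptor, was at 995 CPM in FDPS-KO and 758 CPM in WT, and Pf4 at 551 CPM in FDPS-KO and 613 CPM in WT. In the high group the same genes were lower in FDPS-KO, with Selenop at 203 CPM in FDPS-KO and 313 CPM in WT and Mrc1 at 255 CPM in FDPS-KO and 364 CPM in WT. The furthest apart over all members were Abca9, a lipid transporter, at 126 CPM in FDPS-KO and 19.6 CPM in WT, and Hpgd, which breaks down prostaglandins, at 32.8 CPM in FDPS-KO and 3.30 CPM in WT.

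Receptors for dying cells and scavenger receptors went in different directions. Of 16 measured genes 8 were higher and 3 lower. Mertk was at 308 CPM in FDPS-KO and 152 CPM in WT, its bridging ligand Pros1 at 65.9 CPM in FDPS-KO and 34.02 CPM in WT, and the engulfment pair Elmo1 and Dock1 at 849 CPM and 166 CPM in FDPS-KO, against 414 CPM and 78.8 CPM in WT. The scavenger receptors Msr1, Cd36 and Stab1 were lower, with Msr1 at 127 CPM in FDPS-KO and 382 CPM in WT. Several of the higher genes are long, and less the median of genes of like span the list stood at 0.24 in place of 0.38. General macrophage genes split too, 7 of 17 higher and 3 lower. Cx3cr1, the fractalkine receptor, was at 145 CPM in FDPS-KO and 49.3 CPM in WT and Cd14 at 184 CPM in FDPS-KO and 66.7 CPM in WT, with 52.7% of the FDPS-KO and 10.7% of the WT Cd14 UMIs in 5 cells, while Cd68 was at 341 CPM in FDPS-KO and 827 CPM in WT. In FDPS-KO, Cd68 was lower in each of the 3 groups above.

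Of 27 measured macrophage transcription factors 12 were higher and 1 lower, with a median of 0.49. Zeb2, which supports macrophage identity, was at 3531 CPM in FDPS-KO and 1970.2 CPM in WT, Runx1 at 733 CPM in FDPS-KO and 361 CPM in WT, and Klf4, a factor of monocytes, at 58.9 CPM in FDPS-KO and 13.3 CPM in WT. Klf4 was higher in FDPS-KO in the low group as well, at 49.3 CPM in FDPS-KO and 6.67 CPM in WT. The exception was Bhlhe41, a repressor of the clock and of lipid genes, at 3.68 CPM in FDPS-KO and 34.8 CPM in WT. Of 21 growth factor and cytokine receptor genes 7 were higher and 2 lower, among the higher Il6ra at 233 CPM in FDPS-KO and 87.9 CPM in WT, Tgfbr1 at 267 CPM in FDPS-KO and 104 CPM in WT, and Ifngr1 at 184 CPM in FDPS-KO and 83.0 CPM in WT.

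Interferon genes were divided. Among 30 measured genes induced by type I interferon, 10 were lower and 1 was higher, with a median of -0.18. Ifit1 was at 64.5 CPM in FDPS-KO and 198 CPM in WT, Rsad2 at 219 CPM in FDPS-KO and 483 CPM in WT, and Isg15 at 385 CPM in FDPS-KO and 794 CPM in WT. Less the median of genes of like span the list stood at 0.01, so its median was that of other genes of its length. Of 26 interferon-gamma-induced genes 5 were higher and 3 lower with a median of 0.15. Gbp8 was at 249.8 CPM in FDPS-KO and 102 CPM in WT, Irf1 at 370 CPM in FDPS-KO and 215 CPM in WT, and Nos2, the inducible nitric oxide synthase, at 81.6 CPM in FDPS-KO and 155 CPM in WT. Ciita, which the list shares with the class II genes, was its highest member.

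MHC class I genes were close to equal, 2 of 21 higher and 4 lower with a median of -0.10, although Nlrc5, their activator, was at 264 CPM in FDPS-KO and 135 CPM in WT. H2-K1 was at 1944 CPM in FDPS-KO and 1909 CPM in WT. Nucleic acid sensors had 3 of 21 higher and 1 lower, led by Aim2 at 154 CPM in FDPS-KO and 73.6 CPM in WT. Complement genes beyond C1q had 2 of 11 higher and 2 lower, C3 being at 224 CPM in FDPS-KO and 89.5 CPM in WT and the receptor C5ar1 at 81.3 CPM in FDPS-KO and 182 CPM in WT. Checkpoint genes had 6 of 18 higher and 1 lower. Cd274, which encodes PD-L1, was at 322 CPM in FDPS-KO and 454 CPM in WT, within 1.5-fold, and Havcr2, which encodes TIM-3, was higher at 83.6 CPM in FDPS-KO and 49.3 CPM in WT.

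Mevalonate and sterol genes, the pathway of the enzyme deleted in the tumour cells, had 4 of 14 lower and 1 higher with a median of -0.15. Fdps itself was at 18.7 CPM in FDPS-KO (56 UMIs) and 47.5 CPM in WT (936 UMIs), 2.54-fold lower (1.94 to 3.39), and was the lowest of the list. These are host cells, so the value is no check of the knockout, and the T cells of the libraries differed the same way, with 25.7 CPM in FDPS-KO and 92.7 CPM in WT. Pmvk, Idi1 and Ebp were also lower.

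Cell by cell, the class II and glycolysis differences ran through most of the population. Per cell thinned to 5000 UMIs, H2-Aa, H2-Ab1, H2-Eb1 and Cd74 together had a median of 120.5 UMIs (10th to 90th percentile 55 to 194) in FDPS-KO and 34 (4 to 133) in WT. The WT cells spanned a wider relative range, and 0% of FDPS-KO and 2.20% of WT cells had none. Hypoxia and glycolysis genes had a median of 11 UMIs (4 to 45.9) in FDPS-KO and 50 (17 to 107) in WT, and iron and haem genes 35.5 (16.1 to 80.9) in FDPS-KO and 80 (32 to 222) in WT. For the immediate early list the medians were alike, 24 in FDPS-KO and 25 in WT, and both ends lay further out in FDPS-KO, with a 10th to 90th percentile of 10 to 100 in FDPS-KO and 15 to 45.4 in WT. Ccl2, Ccl7 and Ccl12 together were at 0 in 72.1% of FDPS-KO and 14.3% of WT cells.

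**Figure D5:**
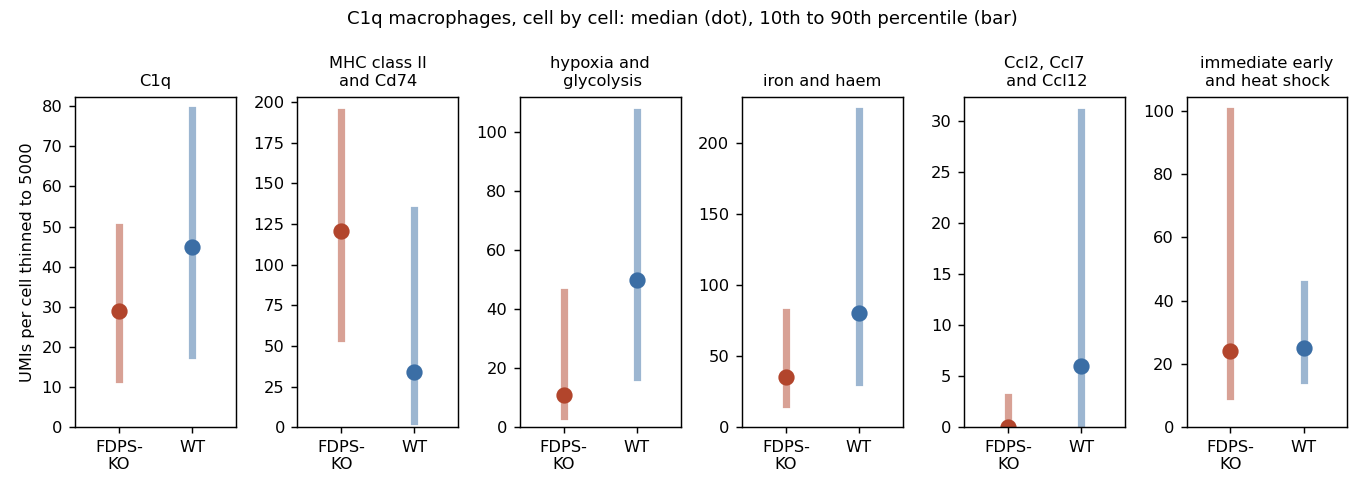
UMIs per cell thinned to 5000 (y axis, own scale per panel) of 6 gene sets in 172 FDPS-KO and 817 WT C1q macrophages, FDPS-KO left. Dots are medians and bars the 10th to 90th percentile; class II genes lie at 120.5 in FDPS-KO and 34 in WT, and the immediate early medians are alike while the FDPS-KO bar runs from 10 to 100 and the WT bar from 15 to 45.4.

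Over cells, sets varied together in library-specific ways. Spearman's rho, a description over cells of 1 library that share depth and free RNA, was 0.57 in FDPS-KO and 0.09 in WT between immediate early and monocyte genes. Both of these lists hold Nr4a1. Between lysosome and lipid-associated genes rho was 0.58 in FDPS-KO and 0.61 in WT. Class II genes and iron genes had a rho of 0.34 in FDPS-KO and -0.23 in WT.

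Since FDPS-KO members had less C1q, cells were also compared within bins of C1q UMIs per 5000. The bins of 15 to 29 (68 FDPS-KO and 170 WT cells) and 30 to 59 (70 FDPS-KO and 364 WT cells) were best filled, and that of 60 or more held 9 FDPS-KO cells. Hypoxia and glycolysis had medians of -1.50 and -1.60 in these 2 bins and the lipid-associated list -0.89 and -1.05. MHC class II had 0.28 and 0.70, and H2-Ab1 was at 4256 CPM in FDPS-KO and 2473 CPM in WT in the lower bin and at 4660.0 CPM in FDPS-KO and 1651 CPM in WT in the upper. In WT cells Ciita and H2-Ab1 were lower in the C1q-rich bins, whereas in FDPS-KO H2-Ab1 stayed near its level in all bins. The monocyte list came to 0.03 and 0.22, and Plac8 and Ly6c2 were lower with more C1q in both libraries.

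Cells under the C1q gate, from the same libraries, showed which differences were shared. Among 8122 genes measured there 12.6% were higher and 9.11% lower in FDPS-KO, with a median of 0.07. Hypoxia and glycolysis genes were lower there too, 18 of 23 with a median of -1.17, as were lipid-associated genes, 12 of 19 with a median of -0.74, and immediate early genes were higher, 13 of 23 with a median of 0.78. For the class II list 1 of 14 was higher there with a median of 0.12, against 9 of 13 and 0.89 in C1q macrophages. H2-Aa was at 3310.1 CPM in FDPS-KO and 2521 CPM in WT under the gate. Monocyte genes had a median of -0.39 and interferon-gamma-induced genes -0.28 under the gate, against 0.68 and 0.15 in C1q macrophages. The interferon-gamma median of C1q macrophages was -0.23 without the Spp1, Retnla and Cd163 gates and -0.10 without the cells highest in immediate early genes, where that of monocyte genes was -0.54. Whether these differences between the 2 classes exceed the spread between tumours was not tested, since each rests on 1 library a group.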

How the data were processed

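The deposited values were counts of UMIs per gene and barcode, whole numbers that the authors made with Cell Ranger, whose version per the file headers was 7.2.0, on the build mm10 that the submitters' processing notes name, with a gene annotation not given in the sources used here. The members and gene lists were chosen with earlier results of these data known. UMIs were summed over members per library and scaled to CPM, with genes of at least 10 CPM in the mean of both libraries measured, gate genes left out and 5 CPM added before log2. The FDPS-KO library held 127186298 UMIs in 9130 barcodes and the WT library 208936136 in 10882. Python 3.11.15, numpy 2.4.6, scipy 1.17.1, pandas 2.3.3 and scanpy 1.11.5 were used, and the summing was tested on simulated counts. Gene spans came from GENCODE vM21 on GRCm38 (32158 of 32285 identifiers found), and promoters from RefSeq on GRCm38.p6. Doublets were kept in the main values. Scrublet marked 0% of FDPS-KO and 1.53% of WT cells automatically, so as an alternative the highest scores were removed at 7.30% and 8.71%, which took 1 FDPS-KO and 56 WT members. Named genes were the 12 highest and the 12 lowest, leaving out other-lineage markers and mitochondrial, ribosomal and predicted genes, the 10 highest over neighbours, and from each list the 3 most abundant, 2 highest and 2 lowest. Other members of the lists were named after their values were seen. Columns of cells outside the 2 libraries numbered 0. Values of some single genes are not reported here.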

Additional observations from a re-analysis of the deposited data

How the results depend on the processing

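No paired analysis was possible because each group has 1 library. Each value was recomputed under up to 20 alternatives, of which weighting WT to the FDPS-KO C1q bins, leaving out the cells highest in immediate early genes and a C1q gate relative to each cell's depth were chosen after seeing the data. The ratio of shares was 0.186 with a C1q gate at 50 UMIs, 0.176 with gates on thinned cells and 0.590 of cells past the base gates. Genes higher and lower past the fold numbered 924 and 774 with a pseudocount of 20 CPM, 833 and 660 with a filter at 50 CPM, and 457 and 353 past 2-fold. Trimmed mean scaling gave 867 higher genes, and taking off the median of the same span decile gave 820 lower genes.

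List medians that crossed 1.5-fold, or were past it and changed sign, were these. Without the cells highest in immediate early genes the inflammatory median was -0.00435, next to no difference. There the monocyte median was -0.54 and the immediate early median -0.30, both reversed, while the resident-type median was 0.79, efferocytosis 0.74 and matrix -0.74. Without the Spp1, Retnla and Cd163 gates the resident-type median was 1.44, Fc receptors -0.74, iron -0.77, inflammatory 0.35, matrix -0.78 and monocyte 0.12. Trimmed mean scaling gave Fc receptors -0.76, iron -0.76, inflammatory 0.45, matrix -0.62 and monocyte 0.48, and median ratio scaling Fc receptors -0.60 and iron -0.61. A filter at 50 CPM gave iron -1.03 and mevalonate 0.67, which rests on the few genes left, and no filter gave lipid-associated -0.57 and inflammatory 0.50. A pseudocount of 20 CPM gave inflammatory 0.48 and monocyte 0.44. Weighting cells equally gave iron -0.66, inflammatory 0.49 and monocyte 0.39. Gates on thinned cells gave iron -0.60, inflammatory 0.57 and monocyte 0.46. A C1q gate at 20 UMIs gave Fc receptors -0.60, iron -0.63 and monocyte 0.58, and a mitochondrial limit of 5% gave Fc receptors -0.59 and iron -0.59. Cells with next to no UMIs of other lineages gave Fc receptors -0.69. WT weighted to the FDPS-KO C1q bins gave inflammatory 0.46 and monocyte 0.17. The causes were not tested. Medians within 1.5-fold also changed sign under some alternatives, reaching -0.05 for macrophage identity, -0.02 for resident-type, -0.13 for complement, -0.37 for chemokines, -0.10 for checkpoint, -0.23 for interferon-gamma-induced, 0.17 for MHC class I and 0.01 for type I interferon-stimulated genes, and no direction is read from them. MHC class II ranged from 0.61 to 1.11 and hypoxia and glycolysis from -2.15 to -1.02 over 19 alternatives. Of the ratios of the 24 genes furthest apart, 455 kept their side of 1.5-fold and 1, that of Dcstamp, did not (0.47 without the cells highest in immediate early genes), while the log2 ratio of Lyz1 ranged from 1.75 to 5.33.

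The FDPS-KO members are 173 cells, so low genes rest on few UMIs there, and 1 library a group gives no spread between tumours.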
